A study of Mus musculus with 6 samples.

Results

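The Zfp genes are a large named series of zinc finger genes in the mouse genome. Protein-coding genes whose symbol starts with Zfp and a number were taken from the deposited table, and members were chosen by their level, as those whose mean across all 6 libraries was 5 FPKM or more. FPKM counts sequenced fragments on a gene per kilobase of its length, with a scale factor for each library. The table held 394 protein-coding Zfp genes among 54532 genes, and 132 of them reached this level. A further 157 had a mean between 1 and 5 FPKM, and 105 were under 1 FPKM. Because the level chose the genes, their levels are given below as a description. A gene that is high in 1 group alone could enter through that group. Of the 132 genes, 118 reached 5 FPKM in the mean of both groups, 10 only in the mean of the cKO group and 4 only in the mean of the control group. Those 4, *Zfp37*, *Zfp42*, *Zfp639* and *Zfp507*, had to be lower in cKO and the other 10, with *Zfp407* and *Zfp936* among them, had to be higher, so the direction of all of these genes is tied to the choice.

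RNA was sequenced from mouse testicular germ cells positive for STRA8, a protein that is induced as germ cells prepare for meiosis. The control group was 3 libraries with the genotype Cre, and the cKO group was 3 libraries with the genotype *Srsf1* knockout, made as a conditional knockout (cKO). SRSF1 is a splicing factor of the serine and arginine rich family. The labels do not name the promoter that drives Cre, the age of the mice, or whether each library came from a separate animal, so the p-values measure the spread between these libraries, which may be technical. Between 15364511 and 17310353 fragments were counted on genes in a control library, and between 14447887 and 15326722 in a cKO library.

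*Srsf1* was at 84.7, 45.2 and 51.9 FPKM in the control libraries and at 5.08, 4.94 and 5.17 FPKM in the cKO libraries. Summed markers of undifferentiated spermatogonia were at 63.4 to 78.1 FPKM in control and 68.5 to 79.0 FPKM in cKO, and those of early meiotic prophase at 866 to 1157 and 936 to 1240 FPKM. Differentiating spermatogonia markers, *Stra8* among them, summed to between 903 and 1018 FPKM and to between 993 and 1112 FPKM. Within these lists limma called *Id4* (log2 fold change -1.30), *Dmrtb1* (-1.35) and *Spo11* (-1.01) lower and *Ret* (0.57) higher. Pachytene spermatocyte markers summed to between 711 and 819 FPKM in the control libraries and to between 116 and 134 FPKM in the cKO libraries, and 9 of the 10 were lower in cKO. All 10 spermatid markers were lower in cKO, with sums between 2411 and 8173 FPKM in control and between 5.71 and 6.86 FPKM in cKO. Control replicate 2 stood apart with the highest spermatid sum, 8173 FPKM against 2444 and 2411 FPKM in the other control libraries. The 7 Sertoli cell markers summed to between 57.4 and 86.2 FPKM in control and to between 48.3 and 119 FPKM in cKO, and 1 of them, *Rhox5*, was called higher (0.72). Peritubular cell markers summed to between 4.10 and 6.35 FPKM in control and to between 7.11 and 8.55 FPKM in cKO, so every cKO library was higher, and 0 of the 2 tested were called. Summed markers of Leydig cells and of macrophages and blood overlapped between the groups and stayed at or under 15.2 FPKM in each library. In such bulk samples, fewer cells of a type and less RNA per cell cannot be told apart, and the part that these markers play in the differences below was not tested.

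A zinc finger is a short fold held together by a zinc ion. In the C2H2 finger a pair of cysteines and a pair of histidines hold the ion, and fingers in a row read DNA. Many Zfp proteins also carry a KRAB box, a domain that recruits the co-repressor TRIM28 and, through it, the histone methyltransferase SETDB1 to silence retroelements and imprinted genes. A smaller class has CCCH fingers, which bind RNA. In the testis, some zinc finger genes are known for expression in spermatocytes and spermatids.

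To show what the names share, the coding strand of 1 finger is printed for the largest differences with fingers in both directions and for a CCCH gene. Each stretch was read from the GRCm38 genome through the GENCODE M21 annotation, and capitals mark the codons of the cysteines and histidines that hold zinc. The *Zfp541* stretch lies in exon 4 of 18 at chr7:16076463-16076525 on the plus strand and codes for residues 142 to 162 of 1363. The *Zfp37* stretch lies in exon 4 of 4 at chr4:62192118-62192180 on the minus strand and codes for residues 257 to 277 of 594. The *Zfp518a* stretch lies in exon 5 of 5 at chr19:40912088-40912150 on the plus strand. The *Zfp568* stretch lies in exon 10 of 10 at chr7:30022724-30022786 on the plus strand. The *Zfp36l2* stretch, from the CCCH class, lies in exon 2 of 2 at chr17:84186668-84186727 on the minus strand.
Zfp541: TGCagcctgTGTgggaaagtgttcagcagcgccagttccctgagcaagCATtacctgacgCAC
Zfp37: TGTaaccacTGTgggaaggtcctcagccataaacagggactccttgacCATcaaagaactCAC
Zfp518a: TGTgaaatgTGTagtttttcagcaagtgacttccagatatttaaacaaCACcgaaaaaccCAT
Zfp568: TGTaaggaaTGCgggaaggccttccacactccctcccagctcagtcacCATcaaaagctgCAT
Zfp36l2: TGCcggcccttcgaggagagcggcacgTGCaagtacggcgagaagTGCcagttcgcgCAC

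Most of the 132 Zfp genes were not called as changed in the *Srsf1* cKO libraries. After log2(FPKM + 1) transformation, limma was fitted to all 15451 genes whose mean was 1 FPKM or more, and a gene was called at a Benjamini-Hochberg adjusted p of at most 0.05 over all of them. Of the Zfp genes, 25 were called higher in cKO (18.9%), 13 were called lower (9.85%) and 94 were not called. Over all genes tested, 11.8% were called higher and 22.2% lower. Of the 118 Zfp genes at 5 FPKM or more in both groups, 23 were called higher and 11 lower. The count of 25 rests in part on single libraries, since it was 14 without cKO replicate 3, 15 without control replicate 3 and 16 without control replicate 1. Among the 8208 protein-coding genes whose mean was 5 FPKM or more, the shares were 14.1% and 21.7%. The median log2 fold change was 0.08 over the Zfp genes and -0.01 over all genes tested, and 74 of the 132 Zfp genes moved by less than 0.25 either way.

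The 3 cKO libraries lay wholly above the 3 control libraries for 39 Zfp genes (29.5%), where 21.8% of all genes tested did so. They lay wholly below for 23 Zfp genes (17.4%), against 28.6% of all genes. The 38 called genes were all among these. The split between higher and lower calls depended on how the libraries were scaled. With quantile normalisation, which moved the median of all genes to 0.215, 58 Zfp genes were called higher and 10 lower, so that 85.3% of the calls were higher rather than 65.8%. Over all genes tested, the share of calls that were higher moved from 34.6% to 67.1% under the same change. Set against the all-gene median, that of the Zfp genes lay 0.08 higher on that scale and 0.09 on the scale of the deposited values.

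**Figure D1:**
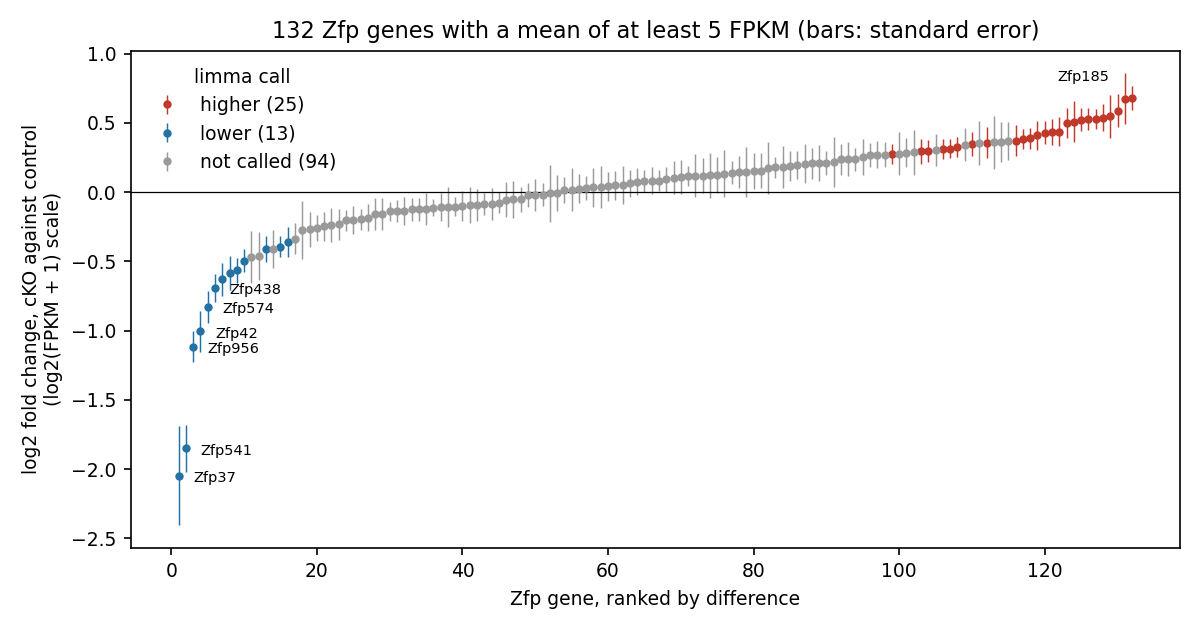
The 132 Zfp genes are ranked along the horizontal axis by log2 fold change of cKO against control, which the vertical axis shows on the log2(FPKM + 1) scale with the standard error as a bar. Red points are the 25 genes called higher, blue points the 13 called lower and grey points the 94 not called. The falls reach -2.05 at Zfp37, and the rises reach 0.68 at Zfp185.

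Called falls ran from -0.36 to -2.05 on the log2 scale, and 4 genes fell by at least 1 unit. Of these 4, *Zfp37* and *Zfp42* reached 5 FPKM in the control group alone. Among the 118 genes at 5 FPKM or more in both groups, the falls reached -1.85 and 2 genes, *Zfp541* and *Zfp956*, fell by at least 1 unit. Called rises ran from 0.28 to 0.68, which is 1.23 to 1.68 times the control mean in FPKM, and 0 genes rose by 1 unit. All 132 genes together summed to between 1753 and 1843 FPKM in the control libraries and to between 1768 and 1902 FPKM in the cKO libraries. The median coefficient of variation between libraries of a group was 9.15% in control and 8.68% in cKO.

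At the top of the order by mean level stood *Zfp518a* (66.4 FPKM), *Zfp598* (48.7 FPKM), *Zfp207* (41.9 FPKM), *Zfp687* (40.9 FPKM) and *Zfp217* (37.9 FPKM). In all, 70 genes had a mean of at least 10 FPKM, 25 of at least 20 FPKM and 1 of at least 50 FPKM. Only *Zfp518a* of these 5 was called. *Zfp598* encodes a ubiquitin ligase that senses collided ribosomes, and was at 48.3 ± 3.70 FPKM in control and 49.2 ± 6.09 FPKM in cKO (SD, n = 3 each). Its groups overlapped. *Zfp207* encodes a protein of the mitotic spindle, and was at 39.2 ± 0.974 and 44.6 ± 3.17 FPKM. Its cKO libraries lay above the control libraries, but limma did not call it (adjusted p = 0.103). At the lower edge, *Zfp507* (5.05 FPKM) and *Zfp710* (5.04 FPKM) were just inside the limit of 5 FPKM, and *Zfp729b* (4.99 FPKM) and *Zfp280d* (4.91 FPKM) were just outside.

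Of 7 Zfp genes in a list of germline and meiosis genes, 4 fell, 0 rose and 3 were not called, and the median log2 fold change was -0.39. The shares of all genes tested were 11.8% called higher and 22.2% called lower. The number of rises was also 0 at an unadjusted p under 0.05 and with limma-voom, where 18.3% and 16.2% of all genes were higher. As *Zfp37* and *Zfp42* were kept for their control level, the count was also taken over the 5 genes at 5 FPKM or more in both groups, of which 2 (*Zfp541* and *Zfp35*) fell, and their median was -0.16. *Zfp541* encodes a DNA-binding partner of histone deacetylases that spermatocytes need to complete the pachytene stage. It lies on the plus strand of chromosome 7 (ENSMUSG00000078796, chr7:16061814-16096334 of GRCm38). Its level was 55.4, 38.1 and 44.3 FPKM in the control libraries and 14.6, 10.7 and 10.7 FPKM in the cKO libraries. The groups were far apart, and the cKO mean was 26.1% of the control mean. The log2 fold change was -1.85 (SE 0.17, limma adjusted p = 0.000243).

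*Zfp37*, a KRAB gene known for its expression in spermatids, lies on the minus strand of chromosome 4 (ENSMUSG00000028389, chr4:62189540-62231047). It was at 5.22, 15.6 and 6.10 FPKM in the control libraries and at 0.950, 1.25 and 1.35 FPKM in the cKO libraries. All cKO libraries were below all control libraries, and control replicate 2, the library with the highest spermatid sum, was 2.76 times the mean of the other control libraries. The log2 fold change was -2.05 (SE 0.36, limma adjusted p = 0.00498). Without control replicate 2 it was -1.61 (adjusted p = 0.000439). Only *Zfp37* and *Zfp428* were more than 1.5 times as high in that library as in the mean of the other control libraries. *Zfp428* was at 26.5, 49.4 and 32.9 FPKM in control and at 30.5, 26.6 and 29.5 FPKM in cKO, and was not called.

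*Zfp42*, also known as Rex1, is a marker of pluripotent cells that is also expressed in spermatocytes. It lies on the minus strand of chromosome 8 (ENSMUSG00000051176, chr8:43295063-43306980). It was at 10.2, 7.46 and 9.34 FPKM in control and at 3.52, 4.76 and 3.67 FPKM in cKO, with no overlap. Its log2 fold change was -1.005 (SE 0.15, limma adjusted p = 0.00235). *Zfp35*, which is known from spermatocytes, was at 22.1, 22.3 and 20.01 FPKM in control and at 16.1, 16.7 and 15.5 FPKM in cKO. The fall in *Zfp35* was small but even across libraries (log2 fold change -0.39, SE 0.08, limma adjusted p = 0.00751). The members of this list that were not called were *Zfp105*, *Zfp318* and *Zfp628*, the last of which is known to be needed for spermatid development. *Zfp628* was at 7.65 ± 1.01 FPKM in control and at 7.35 ± 1.07 FPKM in cKO (SD, n = 3 each).

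**Figure D2:**
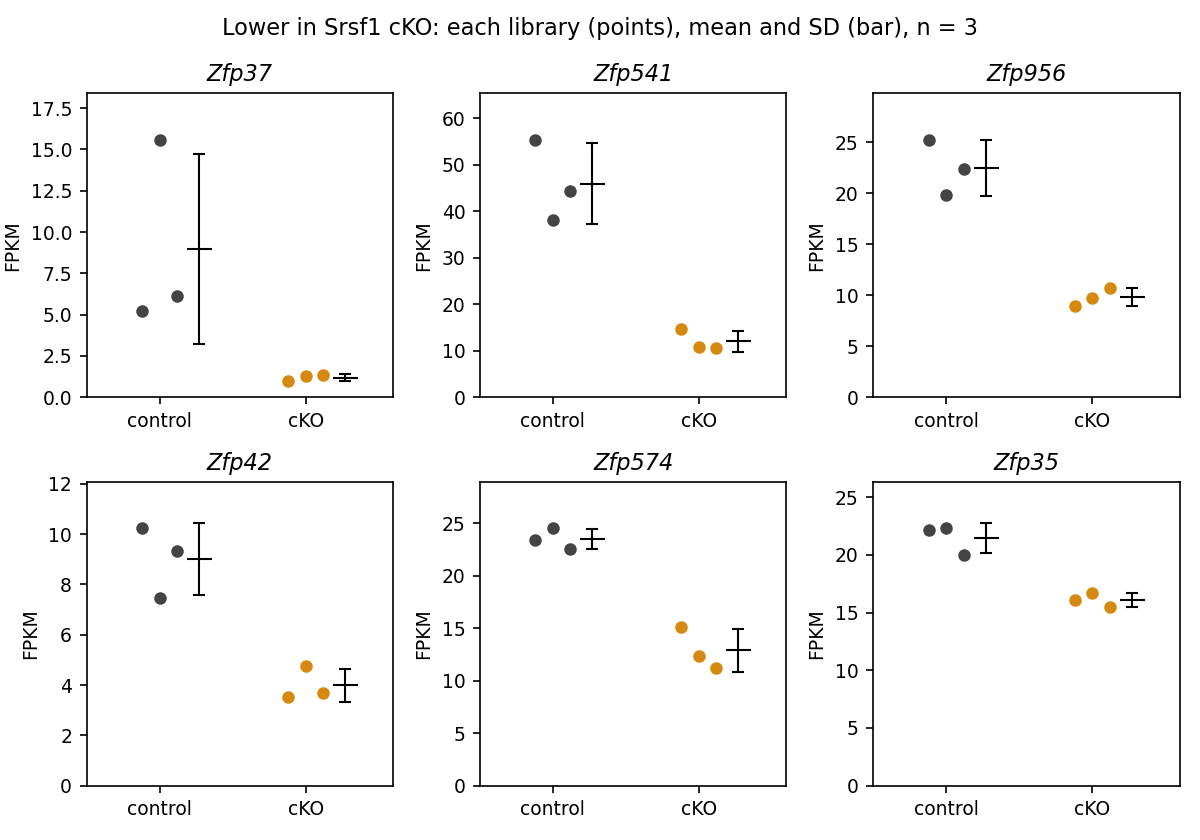
Each panel plots the FPKM of 1 Zfp gene, with a point for each of the 3 control (dark) and 3 cKO (orange) libraries and a bar for the mean and SD of the group, on an axis from 0. In all 6 genes every cKO library lies below every control library, and the high point of Zfp37 at 15.6 FPKM is control replicate 2.

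*Zfp956* lies on the plus strand of chromosome 6 (ENSMUSG00000045466, chr6:47953390-47965300). It was at 25.2, 19.8 and 22.4 FPKM in control and at 8.96, 9.73 and 10.7 FPKM in cKO. The groups were well separated, with a log2 fold change of -1.12 (SE 0.11, limma adjusted p = 0.000353). It overlaps *Zfp783* on the same strand, which had a mean of 4.50 FPKM and a log2 fold change of -0.75, and the counting method is not given in the sources used here. The next falls were in *Zfp574* (23.5, 24.5 and 22.6 FPKM to 15.1, 12.3 and 11.2 FPKM) and *Zfp438* (11.5, 9.35 and 9.69 FPKM to 5.95, 5.83 and 5.95 FPKM), with log2 fold changes of -0.83 and -0.69. *Zfp771* followed at -0.63 and *Zfp326*, which encodes a protein that couples transcript elongation to splicing, at -0.58. *Zfp512b* (-0.57) overlaps *Prpf6* on the opposite strand, which was at a mean of 29.7 FPKM with a log2 fold change of 0.39. *Zfp523* (-0.50), *Zfp653* (-0.41) and *Zfp451* (-0.36), a SUMO ligase gene, completed the 13 falls. The calls of *Zfp326*, *Zfp653* and *Zfp451* were lost under quantile normalisation, and their highest limma adjusted p over the alternatives was 0.0706, 0.0752 and 0.146. The call of *Zfp653* was also lost with the replicate block and without control replicate 1, control replicate 3 or cKO replicate 3.

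ZFP541 acts with KCTD19, histone deacetylases and the scaffold DNTTIP1. Of 5 genes of this complex that were tested, 1 fell and 2 rose, and the median log2 fold change was 0.15. The shares of all genes tested were 11.8% called higher and 22.2% called lower. *Kctd19* fell from 60.5, 43.9 and 41.9 FPKM in control to 9.94, 7.21 and 6.61 FPKM in cKO (log2 fold change -2.48, SE 0.18, limma adjusted p = 9.68e-05). *Hdac2* was at 37.3, 41.4 and 36.2 FPKM in control and rose to 50.9, 48.1 and 52.9 FPKM in cKO (log2 fold change 0.39, limma adjusted p = 0.00769). *Elmsan1*, a deacetylase complex scaffold, was called higher, from a mean of 0.659 to 2.11 FPKM, but it passed the limit of 1 FPKM through the cKO group alone, so its direction is tied to that filter. Of the 4 genes without it, 1 rose and 1 fell, and the median was 0.06. *Hdac1* was at 54.8 and 53.4 FPKM and *Dnttip1* at 27.2 and 30.5 FPKM in control and cKO, and neither was called.

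Of 21 Zfp genes in a list of transcription regulators, 9 rose, 0 fell (1 at an unadjusted p under 0.05, 0 with limma-voom) and 12 were not called, and the median log2 fold change was 0.24. Of all genes tested, 11.8% were called higher and 22.2% lower, and 26.5% were lower at that unadjusted p. Without control replicate 2, 1 of the 21, *Zfp592*, was called lower. Leaving out control replicate 1 or control replicate 3 reduced the rises from 9 to 5. Among listed genes under 5 FPKM, *Zfp64* (0.56) and *Zfp462* (0.39) were called higher, and *Zfp369* and *Zfp503* were not called. *Zfp423* (0.711 FPKM in control, 0.106 FPKM in cKO), *Zfp521* and *Zfp703* had means under 1 FPKM and were not tested. *Zfp518a* was at 55.8, 43.0 and 52.5 FPKM in control and at 68.4, 107 and 71.6 FPKM in cKO (chr19:40894705-40917947, plus strand). The cKO libraries were all higher, with 1 of them well above the others. The log2 fold change was 0.67 (SE 0.18, limma adjusted p = 0.0298), and the call was lost with no filter on FPKM, with the replicate block, without cKO replicate 3 and without any 1 of the control libraries (adjusted p up to 0.0770). Its relative *Zfp518b*, whose protein binds histone methyltransferases, rose from 10.4 ± 1.21 to 13.7 ± 1.28 FPKM (limma adjusted p = 0.0397), and its call held in 8 of 15 alternatives (adjusted p up to 0.129).

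*Zfp335* encodes a nuclear receptor coactivator subunit and was at 9.50, 11.2 and 12.0 FPKM in control and at 16.7, 16.3 and 15.6 FPKM in cKO (log2 fold change 0.54, SE 0.10, limma adjusted p = 0.00597). It overlaps *Pcif1* on the opposite strand, which had a log2 fold change of 0.09. *Zfp292*, a large transcription factor gene, was at 14.9, 13.8 and 14.9 FPKM in control and at 21.7, 23.1 and 19.4 FPKM in cKO (log2 fold change 0.52, SE 0.09, limma adjusted p = 0.00383). In both genes the groups were clearly apart. *Zfp281*, a regulator of pluripotency genes, rose from 22.2, 20.5 and 20.1 FPKM to 28.6, 28.1 and 26.2 FPKM (log2 fold change 0.39, limma adjusted p = 0.00698). *Zfp24*, *Zfp143*, *Zfp655* and *Zfp644* rose by 0.43, 0.41, 0.33 and 0.31 on the log2 scale, and their calls held in 15, 11, 13 and 10 of 15 alternatives. ZFP143 binds promoters and ZFP644 partners the methyltransferase G9a. The 12 genes not called include the partners *Zfp687*, *Zfp592* and *Zfp532*, with log2 fold changes of -0.12, -0.27 and 0.04, and *Zfp609*, a partner of cohesin loaders, with -0.11.

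**Figure D3:**
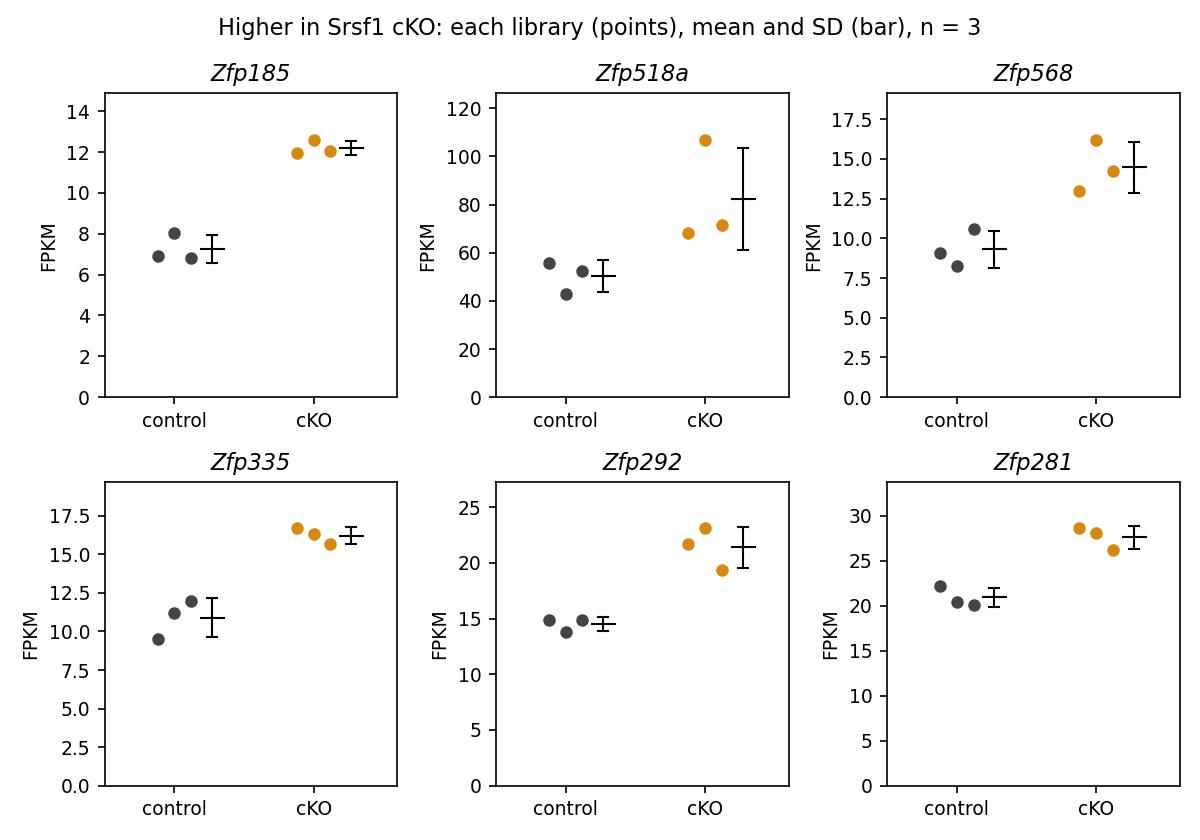
Each panel plots the FPKM of 1 Zfp gene, with a point for each of the 3 control (dark) and 3 cKO (orange) libraries and a bar for the mean and SD of the group, on an axis from 0. In all 6 genes every cKO library lies above every control library, and the cKO library of Zfp518a at 107 FPKM stands above the other 2.

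The largest rise in log2 was in *Zfp185*, which despite its name encodes a LIM domain protein that binds actin. It lies on the X chromosome (ENSMUSG00000031351, chrX:72987339-73031543, plus strand) and no C2H2 or CCCH finger was found in its coding sequence. It was at 6.89, 8.06 and 6.81 FPKM in control and at 11.9, 12.6 and 12.1 FPKM in cKO, with little spread in either group (log2 fold change 0.68, SE 0.09, limma adjusted p = 0.00142). The only other X-linked gene of the 132, *Zfp711*, which encodes a partner of the histone demethylase PHF8, was at 13.6, 13.7 and 15.6 FPKM in control and at 19.9, 21.6 and 21.5 FPKM in cKO. It rose by 0.53 on the log2 scale (SE 0.08, limma adjusted p = 0.00292). Both X-linked genes were therefore among the 10 largest rises. *Zfp623* was at 9.16, 8.79 and 8.93 FPKM in control and at 12.8, 13.7 and 13.7 FPKM in cKO (log2 fold change 0.53, SE 0.07, limma adjusted p = 0.00177).

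*Zfp617*, *Zfp407* and *Zfp936* completed the 10 largest rises, with log2 fold changes of 0.55, 0.51 and 0.50. The control means of *Zfp407* and *Zfp936* were 4.36 and 4.82 FPKM, so both were kept for their level in cKO. Only 67.9% of the 100-base windows of *Zfp617* occurred in no other annotated gene, and it overlaps *Zfp882* on the same strand, so its reads may be shared. Each of these 3 calls was lost under at least 1 alternative (highest adjusted p 0.101, 0.0967 and 0.0565). The other rises outside the lists were *Zfp867* (0.44), *Zfp580* (0.43), *Zfp142* (0.32), *Zfp839* (0.30), *Zfp869* (0.29) and *Zfp280b* (0.28). The call of *Zfp580* held in all 15 alternatives, and those of *Zfp142*, *Zfp867*, *Zfp280b*, *Zfp839* and *Zfp869* in 13, 12, 10, 9 and 6 of them (adjusted p up to 0.148 with limma). *Zfp839* overlaps *Mpc1-ps* on the opposite strand, which was at a mean of 110 FPKM with a log2 fold change of 0.31.

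Among the genes for imprint and retroelement repression at a mean of 5 FPKM or more, 2 of 3 rose and 0 fell (also 0 at an unadjusted p under 0.05 and with limma-voom), and the median log2 fold change was 0.35. The shares of all genes tested were 11.8% called higher and 22.2% called lower. *Zfp568* encodes a KRAB protein that represses a placental transcript of *Igf2* in embryos. It lies on the plus strand of chromosome 7 (ENSMUSG00000074221, chr7:29983955-30028282). It was at 9.06, 8.26 and 10.6 FPKM in control and at 13.0, 16.2 and 14.2 FPKM in cKO, with no overlap (log2 fold change 0.59, SE 0.12, limma adjusted p = 0.00931). *Zfp445*, whose protein maintains genomic imprints, was at 22.9, 19.4 and 22.1 FPKM in control and at 27.7, 29.2 and 25.9 FPKM in cKO (log2 fold change 0.35, SE 0.09, limma adjusted p = 0.0211). This call was lost with the replicate block and without control replicate 3, cKO replicate 1 or cKO replicate 2 (adjusted p up to 0.0770). *Zfp809*, which silences retroviral DNA, was at 5.62 ± 1.07 and 6.20 ± 1.10 FPKM, and its groups overlapped. Of the other genes on this list, *Zfp57*, which also maintains imprints, was at 1.88 and 1.16 FPKM in control and cKO (log2 fold change -0.39) and *Zfp932* at 2.65 and 2.67 FPKM (0.01), neither of them called, and *Zfp708* was under 1 FPKM and not tested.

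The co-repressor genes through which KRAB proteins act were read from the same fit. Of 12 tested, 2 rose, 0 fell and 10 were not called, where 11.8% of all genes tested were called higher and 22.2% lower. At an unadjusted p under 0.05, 4 were higher and 0 lower, where 18.3% and 26.5% of all genes were. With limma-voom, 5 were higher and 0 lower, where 16.2% and 21.5% of all genes were. The median log2 fold change of the 12 was 0.15. *Mphosph8*, a subunit of the HUSH silencing complex, rose from 92.1 ± 6.88 to 133 ± 21.5 FPKM and *Dnmt1*, the maintenance DNA methyltransferase, from 61.6 ± 2.95 to 74.2 ± 5.10 FPKM (limma adjusted p = 0.0168 and 0.0369). Without control replicate 1, control replicate 3, cKO replicate 1 or cKO replicate 3, 1 of the 12 was called higher. *Trim28* itself was at means of 144 and 131 FPKM, and *Setdb1* at 79.6 and 96.3 FPKM.

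Of 9 genes for RNA processing, ribosome and translation, 2 rose, 1 fell and 6 were not called, and the median log2 fold change was 0.02. The shares of all genes tested were 11.8% called higher and 22.2% called lower. *Zfp622*, needed to build the large ribosomal subunit, was at 20.6, 19.98 and 20.9 FPKM in control and at 24.9, 28.8 and 27.8 FPKM in cKO (log2 fold change 0.39, SE 0.08, limma adjusted p = 0.00809). *Zfp346*, whose protein binds double-stranded RNA, rose from 16.6 ± 1.24 to 21.7 ± 2.76 FPKM (limma adjusted p = 0.0441), close to the threshold, and its call was lost in 8 of 15 alternatives. *Zfp326*, described above, was the fall. *Zfp385a* was at 26.2, 25.8 and 23.5 FPKM in control and at 24.4, 14.1 and 16.5 FPKM in cKO, so that 1 cKO library lay among the control libraries (limma adjusted p = 0.0936).

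The CCCH genes *Zfp36*, *Zfp36l1* and *Zfp36l2*, whose proteins bind AU-rich elements and speed mRNA decay, were not called, also with limma-voom, and 0 of them had an unadjusted p under 0.05. Their log2 fold changes were 0.35, 0.22 and 0.21. *Zfp36l2* was the most abundant, at 28.02, 34.8 and 33.3 FPKM in control and 43.6, 32.0 and 36.5 FPKM in cKO, with overlapping groups. Of 3 genes for spindle, SUMO, ubiquitin and genome maintenance, *Zfp451* fell and *Zfp207* and *Zfp91* were not called, with a median of -0.14. For both lists, the shares of all genes tested were 11.8% called higher and 22.2% called lower. The call of *Zfp451* (adjusted p = 0.0431 with limma) held in 5 of 15 alternatives.

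**Figure D4:**
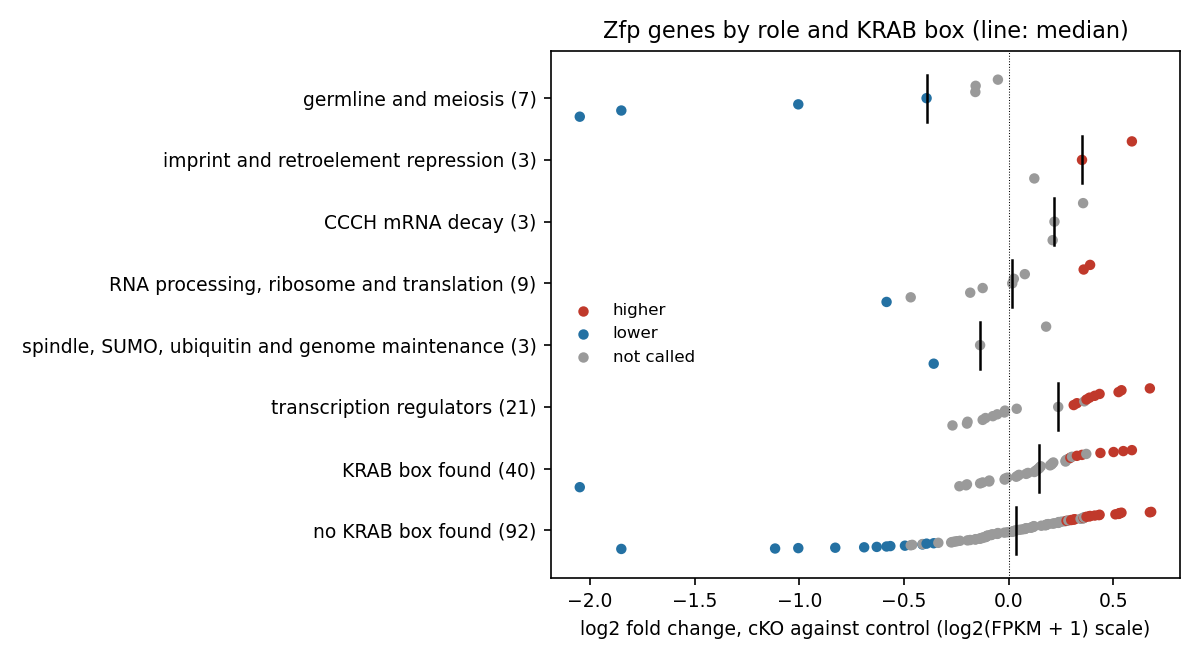
Each point is 1 Zfp gene, placed along the horizontal axis by its log2 fold change of cKO against control on the log2(FPKM + 1) scale, in rows for the role lists and for genes with and without a KRAB box (number of genes in brackets, black line the median). Red is called higher, blue called lower and grey not called. The germline and meiosis row holds 4 of the 13 falls, 2 of them (Zfp37 and Zfp42) in genes kept for their control level alone, and the transcription regulator row holds 9 of the 25 rises.

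Fingers were counted in the longest annotated coding sequence of each gene, and the KRAB box was searched for in all of its annotated coding sequences. A KRAB box was found in 40 of the 132 genes (30.3%) and in 239 of all 394 Zfp genes (60.7%). Among the 40, 7 rose and 1, *Zfp37*, fell, and the median log2 fold change was 0.14. *Zfp37* was kept for its control level and *Zfp936*, among the rises, for its cKO level, and of the 35 KRAB genes at 5 FPKM or more in both groups, 6 rose and 0 fell. Among the 92 without a KRAB box, 18 rose and 12 fell, with a median of 0.03, and of the 83 at 5 FPKM or more in both groups, 17 rose and 11 fell. Of all genes tested, 11.8% were called higher and 22.2% lower, and of the 132 Zfp genes 18.9% and 9.85%. Neither the difference between the classes with and without a KRAB box nor its relation to level was tested. The KRAB genes had a median level of 8.25 FPKM, against 11.9 FPKM for the others, and a median of 11 C2H2 fingers against 7. With quantile normalisation, 20 of the KRAB genes and 38 of the others were called higher. Leaving out 1 library left 3 to 6 KRAB genes called higher, with 3 without control replicate 3 or cKO replicate 3 and 4 without cKO replicate 1. It left 11 to 17 of the others, with 11 without control replicate 1 or cKO replicate 3.

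The number of fingers ran from 0 to 37, the highest in *Zfp142*. Of 73 genes with at least 8 fingers, 13 rose and 5 fell. Of 53 genes with 1 to 7 fingers, 10 rose and 8 fell. Over the genes at 5 FPKM or more in both groups, the counts were 11 rises and 4 falls of 63 and 10 rises and 7 falls of 49, where 11.8% and 22.2% of all genes tested were called higher and lower. The difference between these classes was not tested. The 6 genes with 0 C2H2 fingers were the CCCH trio and *Zfp185*, *Zfp330* and *Zfp839*, of which *Zfp185* and *Zfp839* rose.

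Zfp genes often lie side by side as relics of gene duplication. The 132 genes lay on 20 chromosomes, 30 of them on chromosome 7, and 50 had another Zfp gene of the annotation within 100 kb. Of these 50, 7 rose and 3 fell, and of the 82 without such a neighbour, 18 rose and 10 fell. Over the genes at 5 FPKM or more in both groups, 7 of 46 with a neighbour rose and 3 fell, and 16 of 72 without one rose and 8 fell, against the same shares of all genes. This difference was not tested either. There were 26 pairs of the 132 genes within 100 kb of each other, and 10 of these pairs had log2 fold changes of the same sign. In 1 pair both genes were called, and in opposite directions: *Zfp35* fell and *Zfp24* rose, with 4326 bases between them. *Zfp956* fell while *Zfp212*, 20751 bases away, was at a log2 fold change of 0.21 and was not called. *Zfp568* rose while *Zfp566*, 49055 bases away, was at 0.08 and was not called. For 10 genes, under 90% of their 100-base windows were found in no other annotated gene on either strand, and 3 of them (*Zfp617*, *Zfp335* and *Zfp142*) rose. This measure does not separate duplicated copies from overlapping genes, such as *Pcif1* on the strand opposite *Zfp335*. A gene at a mean of at least 1 FPKM overlapped 35 of the 132 genes.

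To set the 3 largest falls without a KRAB box beside the largest rise, their promoters are printed from RefSeq (GRCm38.p6), from 250 bases before to 50 bases after the annotated start, with each CpG in capitals. RefSeq gave a promoter for 108 of the 132 genes by symbol. CpG dinucleotides had a median of 21 in these 300 bases, against 8 over all 27025 genes in the promoter table. Those genes were not filtered by level or by coding class, as the Zfp genes were, so the sets differ in more than name. Where a gene had several promoters, the highest count was used. The medians were 24.5 for the 10 matched genes that fell, 20.5 for the 20 that rose and 21 for the 78 that were not called. *Zfp541* had 4 (chr7:16071595-16071894, plus strand), and 3 of the 108 genes had 4 or fewer, the others being *Zfp583* and *Zfp710*. The RefSeq start of *Zfp541* lies 10031 bases inside the gene as the table annotates it, and for 12 of the 108 genes the starts differ by more than 1000 bases, so these counts and matches describe the RefSeq start alone. *Zfp42* had 11 (chr8:43306960-43307259, minus strand), *Zfp956* had 16 (chr6:47953140-47953439, plus strand) and *Zfp185* had 20 (chrX:72987089-72987388, plus strand).
Zfp541: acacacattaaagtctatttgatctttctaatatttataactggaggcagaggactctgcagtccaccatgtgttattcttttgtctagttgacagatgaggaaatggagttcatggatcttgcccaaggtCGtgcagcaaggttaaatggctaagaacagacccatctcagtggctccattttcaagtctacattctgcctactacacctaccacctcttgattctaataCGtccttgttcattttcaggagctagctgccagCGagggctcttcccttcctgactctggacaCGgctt
Zfp42: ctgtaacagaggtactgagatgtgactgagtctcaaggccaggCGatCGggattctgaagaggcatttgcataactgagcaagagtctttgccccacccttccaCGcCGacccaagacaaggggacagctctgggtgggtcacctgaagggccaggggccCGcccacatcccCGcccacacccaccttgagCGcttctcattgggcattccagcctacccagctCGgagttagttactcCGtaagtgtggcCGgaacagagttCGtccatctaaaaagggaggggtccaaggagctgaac
Zfp956: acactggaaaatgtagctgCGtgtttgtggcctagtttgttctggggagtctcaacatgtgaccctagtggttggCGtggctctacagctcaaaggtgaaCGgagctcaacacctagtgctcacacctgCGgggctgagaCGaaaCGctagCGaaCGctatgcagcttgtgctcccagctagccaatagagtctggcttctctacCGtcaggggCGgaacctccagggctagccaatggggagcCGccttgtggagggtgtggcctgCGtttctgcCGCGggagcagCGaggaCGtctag
Zfp185: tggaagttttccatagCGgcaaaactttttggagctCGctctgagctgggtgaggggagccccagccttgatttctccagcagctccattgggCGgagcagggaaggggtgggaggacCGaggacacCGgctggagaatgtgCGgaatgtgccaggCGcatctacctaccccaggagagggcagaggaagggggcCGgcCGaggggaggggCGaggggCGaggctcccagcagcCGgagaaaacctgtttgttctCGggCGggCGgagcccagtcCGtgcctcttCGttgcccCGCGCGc

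Short motifs were searched for on both strands of the same windows. The GC box GGGGCGGGG was present in 24 of the 108 promoters (22.2%) and in 12.9% of all promoter-table genes, and in 4 of the 20 genes that rose and 2 of the 10 that fell. The letters TATAAA were present in 10 of the 108 (9.26%) and in 15.7% of all, and among the genes that changed only in *Zfp541*. CCAAT was present in 48 of the 108 (44.4%) and in 41.1% of all. These matches describe the letters in the windows and were not tested against the calls.

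The Zfp genes under the limit of 5 FPKM were compared in the same fit. Of the 157 genes with a mean between 1 and 5 FPKM, 22 were called higher (14.0%) and 7 lower (4.46%), against 11.8% and 22.2% of all genes tested. Of the 157, 17 were under 1 FPKM in one group and were tested for their level in the other, and 4 of the rises (*Zfp760*, *Zfp963*, *Zfp882* and *Zfp941*) and 2 of the falls (*Zfp474* and *Zfp608*) were among them. Over the 140 genes at 1 FPKM or more in both groups, 18 were called higher and 5 lower, and the median log2 fold change was 0.13. A KRAB box was found in 121 of the 157. The germline gene *Zfp474* was at a mean of 7.25 FPKM in control and 0.0286 FPKM in cKO. It was called lower, but it was kept through the control group alone, so that its direction is tied to the limit. *Zfp59* (log2 fold change -0.20) and *Zfp819* (0.21), also on the germline list with means between 1 and 5 FPKM, were not called.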

How the data were processed

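RNA-seq of 6 libraries was deposited by the authors as a single table of FPKM with gene lengths. Per the submitters' processing notes, HISAT2 2.0.5 and the build mm10 (GRCm38) were used, and the counting tool is not given in the sources used here. The deposited FPKM times gene length fell on whole multiples of 1 fragment for 100% of the values checked (tolerance 0.02), which gave the fragments counted. The FPKM denominators were 0.971 to 1.05 times their sum. Genes whose mean was 1 FPKM or more were tested on log2(FPKM + 1) with limma 3.58.1 in R 4.3.3 (trend, two-sided, no covariate). This scale understates changes of low genes. The computation was tested on simulated data. The members, the lists of genes and the markers were chosen with earlier results of these data known. Named were the 10 largest rises and falls among called genes with no overlap, the 5 highest means, genes of the role lists, the 2 genes on either side of the 5 FPKM limit, called genes of the pathway lists and *Srsf1*. Other genes, such as *Zfp428* and *Zfp212*, were named after their values were seen. A KRAB box was a log-odds profile score above 0, with the profile built from the Zfp proteins themselves, a C2H2 finger was a match to the spacing of its cysteines and histidines, and the sources were GENCODE M21 and RefSeq. Alternatives tried were no filter, a mean of 5 FPKM or more, a pseudocount of 0.1, median of ratios, quantile normalisation, FPKM without the authors' factor, limma-voom on recovered fragments, no trend, a replicate block, a minimum change of 1 and leaving out each library.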

Additional observations from a re-analysis of the deposited data

How the results depend on the processing

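All 38 called Zfp genes kept their direction under every alternative, and 10 of the 25 rises and 10 of the 13 falls stayed called under 15 alternatives (all but the minimum change of 1). Over all genes, 1821 were called higher and 3437 lower. Quantile normalisation gave 5164 higher genes and 58 higher Zfp genes. A minimum log2 change of 1 left 177 higher and 1939 lower genes, with 0 higher and 4 lower Zfp genes, and a mean of at least 5 FPKM left 1950 lower genes because fewer were tested. Leaving out 1 library gave 969 to 1767 higher and 2693 to 3510 lower genes, and 14 to 23 higher and 11 to 15 lower Zfp genes. The fewest higher Zfp genes were 14 without cKO replicate 3, with 15 without control replicate 3 and 16 without control replicate 1. Same-numbered libraries correlated at -0.001, -0.11 and 0.02 in their deviations from the group means, so the numbers were not taken as pairs; with the number as a replicate block, 891 genes and 10 Zfp genes were called higher. Among the 68 genes named by the rules above, signs changed only in genes that were not called. Zfp genes that were neither called nor named by those rules were not checked for sign. With quantile normalisation, log2 fold changes became 0.029 (*Zfp217*), 0.11 (*Zfp131*), 0.011 (*Zfp638*), 0.18 (*Zfp746*), 0.17 (*Zfp516*), 0.20 (*Zfp628*) and 0.068 (*Zfp507*). Without the authors' factor and with limma-voom, *Zfp131* was at 0.025 in both, and *Zfp746* at 0.026 and 0.027. Leaving out 1 library gave -0.072 to 0.091 for *Zfp598*, -0.037 to 0.084 for *Zfp706*, -0.084 to 0.025 for *Zfp131*, -0.059 to 0.020 for *Zfp746*, -0.155 to 0.050 for *Zfp516*, -0.155 to 0.043 for *Zfp628*, -0.0058 to 0.23 for *Zfp809* and -0.058 to 0.14 for *Zfp532*. The cause of these shifts was not tested.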
